A study of Coturnix japonica with 15 samples.

Results

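The livers of Japanese quail embryos given ethinylestradiol at either of 2 doses were taken as 1 group and compared with the livers of embryos given solvent alone. All libraries labelled with ethinylestradiol entered, 10 of the 15 in the study, and the 5 solvent libraries formed the other group. Ethinylestradiol, a synthetic oestrogen, was given at 3.33 µg per g of egg in 5 libraries and at 33.3 µg per g in 5 libraries, and the solvent was DMSO. Each egg received 10 µl of its solution in the air cell and was then incubated at 37 °C in 60% humidity, and RNA came from the left lobe of the liver on embryonic day 9. The labels give no sex and do not say whether each library was a separate embryo, so p-values measure the spread between these libraries, which may be technical. Pooling the doses asks which transcripts differed from solvent on average over the treated libraries, without requiring equal effects at the 2 doses. A group of 10 gives more precision for small differences than either dose alone.

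Oestrogens act through nuclear receptors that bind DNA and recruit coactivators. In laying birds they turn the liver towards making yolk: apolipoprotein B and other yolk precursors are made, passed into the endoplasmic reticulum, glycosylated, carried to the Golgi in coated vesicles and secreted, while lipid is built for export. The liver of the chick embryo also carries the receptor and makes some of these proteins when oestrogen is injected. Gene roles given below are those known in mammals or chicken.

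Library totals were 21715273 to 54591426 estimated counts in the treated libraries and 21726195 to 32140126 in the solvent libraries. Values below are counts scaled to a TMM-adjusted library total of 1e+06 (CPM), not divided by transcript length. The tissue label was checked against albumin, which took 9.71% to 13.3% of the counts in 13 libraries. In 3.33 µg/g replicate 4 and 33.3 µg/g replicate 1 albumin took 4.85% and 5.87%, and calls of named genes that end without these 2 libraries are given with that value. Both libraries also had a low mean level of chromosome Z genes (mean log2 CPM 3.08 and 3.11). So did 3.33 µg/g replicate 3 and solvent replicate 3 (3.16 and 3.13). Leaving out the 2 low-albumin libraries therefore changes both traits together. Summed over 10 tested hepatocyte markers, the treated libraries ran from 48946 to 143650 CPM and the solvent libraries from 119541 to 154851 CPM. Albumin made up most of this sum (means of 99229 CPM with treatment and 116225 CPM with solvent), so the sum largely repeats the albumin check. By adjusted p, 1 of these markers, FGA, was lower. Of the 10, 8 had a value below 0 (median −0.28), and 3 were lower and 2 higher at an unadjusted p under 0.05. Of the 7 erythroid, 11 macrophage, 13 endothelial, 14 mesenchymal, 6 bile duct, 3 pancreas or gut, 7 muscle and 6 thrombocyte or lymphoid markers tested, 0 passed in edgeR or limma-voom and 1 bile duct marker in DESeq2, while 1 macrophage marker (higher), 4 bile duct markers (3 higher, 1 lower) and 1 muscle marker (lower) had an unadjusted p under 0.05. The median log2 fold change was 0.35 for the macrophage markers, 10 of 11 above 0 (0.62 at 3.33 µg/g, where 1 passed, and −0.07 at 33.3 µg/g), and 0.46 for the bile duct markers, 5 of 6 above 0; their part in the results was not tested. The erythroid sums were 158 to 352 CPM with treatment and 207 to 322 CPM with solvent, and the macrophage sums were 156 to 397 CPM with treatment and 166 to 239 CPM with solvent. Of 16 erythroid markers listed, 7 were tested, without the haemoglobin genes, ALAS2 or GATA1. The erythroid covariate used below rests on these 7. For pancreas or gut 3 of 14 listed were tested, so blood and pancreas content was checked only in part. In bulk tissue, fewer cells of a type and less RNA per cell cannot be told apart.

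Pooled ethinylestradiol changed 287 of 14508 tested genes (1.98%) at an adjusted p under 0.05 in edgeR's quasi-likelihood test with Benjamini-Hochberg adjustment. Higher genes numbered 209 (1.44%) and lower genes 78 (0.538%). At an unadjusted p under 0.05 there were 2126 genes (14.7%). For 129 of the higher and 21 of the lower genes all 10 treated values lay beyond the 5 solvent values. Over all tested genes 143 (0.986%) lay wholly above and 44 (0.303%) wholly below solvent, 187 (1.29%) in all. The calls rest on these same values, so the separation of the passing genes is not independent of their p-values. The count depended on single solvent libraries: 162 genes passed without replicate 1 (122 higher, 40 lower), 183 without replicate 2 (131 higher) and 156 without replicate 4 (126 higher, 30 lower). Lower genes also numbered 43 without solvent replicate 3, 49 without 33.3 µg/g replicate 2 and 121 without 33.3 µg/g replicate 4. In all, 123 of the 287 passed whichever library was left out.

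Changes under 2-fold made up 159 of the 287 calls (1.1% of the genes tested), with 99 higher (0.682%) and 60 lower (0.414%). A split at 1.5-fold put 54 higher and 35 lower genes under that size, with median log2 fold changes of 0.40 and −0.42. From 1.5-fold to 2-fold there were 45 higher and 25 lower genes. Above 2-fold the calls leaned to one side: 44 higher and 16 lower genes changed by 2-fold to 4-fold, and 66 higher and 2 lower genes by over 4-fold. The smallest change that passed was −0.23 on the log2 scale. This was in STK4, a kinase of the Hippo growth control pathway, named after its value was seen, at 41.9 CPM with treatment and 49.0 CPM with solvent. The STK4 call (edgeR adjusted p = 0.0473) ended without any of 12 libraries (adjusted p up to 0.130) and with both low-albumin libraries left out (0.0920).

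The small changes that passed were in genes counted often and varying little, where a test can call a small change. Under 2-fold, the median passing gene had 52.8 CPM in its higher group and a biological coefficient of variation of 0.150, against 16.6 CPM and 0.192 over all genes tested. At 2-fold or more the medians were 8.36 CPM and 0.409. Of the 159 genes with small changes, 121 had at least 9 of 10 treated values beyond every solvent value, and 66 had all 10, where 463 of all tested genes (3.19%) reached 9 of 10. Such separation is partly built in, since the calls were made on the same values. The count of small changes was 71 without solvent replicate 1, 76 without replicate 2, 88 without replicate 3 and 64 without replicate 4. Tested against a fold change of 1.2 in place of 0, 25 genes under 2-fold passed, and 8 of the 24 small changes named by the rule did not.

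**Figure D1:**
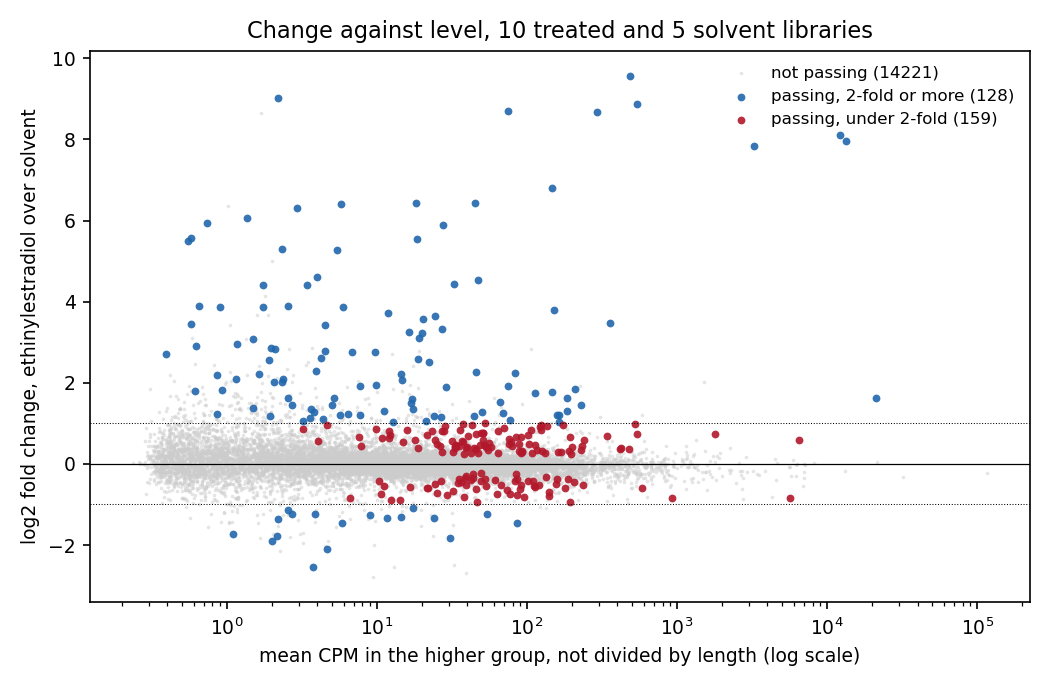
Each point is 1 of 14508 tested genes, with its mean CPM in the higher group (x axis, log scale, not divided by length) and its log2 fold change of ethinylestradiol over solvent (y axis). Red points are the 159 passing genes that changed by under 2-fold, inside the dotted lines, and blue points the 128 that changed by 2-fold or more, which lie mostly above 0 and at lower CPM.

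The gene with the smallest p among the small rises was GNG5, a gamma subunit of heterotrimeric G proteins. The treated libraries had 84.9 to 114 CPM with a median of 100.7, and solvent replicates 1 to 5 had 60.1, 69.3, 58.3, 59.7 and 63.3 CPM. The lowest treated library stood above the highest solvent library. GNG5 averaged 101.1 ± 8.64 CPM with treatment (SD, n = 10) and 62.1 ± 4.42 CPM with solvent (SD, n = 5; SDs below are over the same libraries), a log2 fold change of 0.70 (SE 0.07, edgeR adjusted p = 5.58e-05).

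NR2F1, an orphan nuclear receptor of the COUP-TF family that represses or activates many genes, had 137 to 211 CPM in the treated libraries, median 172. In the solvent libraries it had 81.5, 81.0, 109, 86.7 and 90.8 CPM, so the groups did not overlap. The means were 173 ± 25.9 CPM with treatment and 89.7 ± 11.3 CPM with solvent (log2 fold change 0.95, SE 0.11, edgeR adjusted p = 0.000226). The gene lies on chromosome Z, and Z genes had a lower mean level in 4 libraries, 1 of them solvent. The NR2F1 call passed with the chromosome Z mean as a covariate.

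GMPPB makes GDP-mannose, the mannose donor for glycans and glycosylphosphatidylinositol (GPI) anchors. Treated libraries had 65.4 to 88.4 CPM, median 74.01, and solvent libraries 51.3, 53.1, 46.9, 47.1 and 46.9 CPM. Every treated value was above every solvent value, and the solvent values lay within a narrow band. GMPPB averaged 75.6 ± 8.26 CPM with treatment and 49.0 ± 2.94 CPM with solvent (log2 fold change 0.63, SE 0.08, edgeR adjusted p = 0.000412). PIGC, a subunit of the enzyme that starts GPI anchor synthesis, had 21.4 to 32.6 CPM with treatment, median 25.8, and 14.1, 17.4, 12.9, 16.7 and 16.6 CPM with solvent. Here too the groups stood apart (27.1 ± 4.30 CPM with treatment and 15.5 ± 1.94 CPM with solvent, log2 fold change 0.80, SE 0.12, edgeR adjusted p = 0.00156).

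SLC41A3, a magnesium transporter, ran from 93.8 to 143 CPM in treated libraries, median 121. Solvent libraries spread more, at 45.1, 76.3, 50.6, 67.3 and 77.7 CPM, and still lay below all treated ones. Its means were 123 ± 14.6 CPM with treatment and 63.4 ± 14.9 CPM with solvent (log2 fold change 0.96, SE 0.13, edgeR adjusted p = 0.000629).

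Further small rises came in genes of unlike roles. SMIM15, a small membrane protein, rose by 0.98 on the log2 scale, MIDN, which brings nuclear proteins to the proteasome, by 0.95, and RAB3IP, an activator of Rab8 in vesicle traffic, by 0.81 (edgeR adjusted p = 0.00156, 0.00189 and 0.00265). All 3 had groups that did not overlap. ATP6V0A1, a subunit of the proton pump of acid compartments, averaged 56.0 ± 5.49 CPM with treatment and 39.0 ± 3.59 CPM with solvent (0.52, edgeR adjusted p = 0.0019). In 1 of 10 treated libraries, 3.33 µg/g replicate 5 at 44.4 CPM, it lay below the highest solvent library at 45.1 CPM.

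Among small falls the smallest p was that of SBNO2, a transcriptional regulator known in mouse macrophages as part of the interleukin-10 response. Treated libraries had 18.3 to 23.4 CPM, median 19.4, and solvent libraries 25.1, 29.1, 25.8, 28.8 and 24.7 CPM. No treated value reached the lowest solvent value, although the fall was small (19.98 ± 1.51 CPM with treatment and 26.7 ± 2.09 CPM with solvent, log2 fold change −0.42, SE 0.07, edgeR adjusted p = 0.00305). Against a fold change of 1.2 it did not pass (adjusted p = 0.251).

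ZBTB42, a zinc finger transcription factor, had 6.30 to 9.79 CPM with treatment, median 7.62, and 18.7, 10.4, 18.2, 12.9 and 10.9 CPM with solvent. The solvent values were the more scattered, and all were above the treated ones (7.73 ± 1.09 CPM with treatment and 14.2 ± 3.98 CPM with solvent, log2 fold change −0.88, SE 0.14, edgeR adjusted p = 0.00314). TCAIM, a mitochondrial protein, had 30.2 to 46.6 CPM with treatment, median 38.7, against 63.2, 68.1, 47.0, 88.1 and 50.1 CPM with solvent. Its highest treated library was just under its lowest solvent library (38.0 ± 5.06 CPM with treatment and 63.3 ± 16.4 CPM with solvent, −0.73, SE 0.13, edgeR adjusted p = 0.00551).

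ALCAM, a cell adhesion molecule of the immunoglobulin family, had 14.1 to 30.7 CPM in treated libraries, median 25.0. Solvent libraries had 41.8, 49.0, 51.1, 35.9 and 55.1 CPM, all higher. The means were 24.3 ± 5.95 CPM with treatment and 46.6 ± 7.70 CPM with solvent (log2 fold change −0.93, SE 0.17, edgeR adjusted p = 0.00577). Of these genes and DHRS3, the fifth small fall, given with the retinoid genes, ALCAM had the lowest p between the doses, at −1.14 for 3.33 µg/g and −0.75 for 33.3 µg/g over solvent (unadjusted p = 0.0435). All 10 calls held whichever library was left out.

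**Figure D2:**
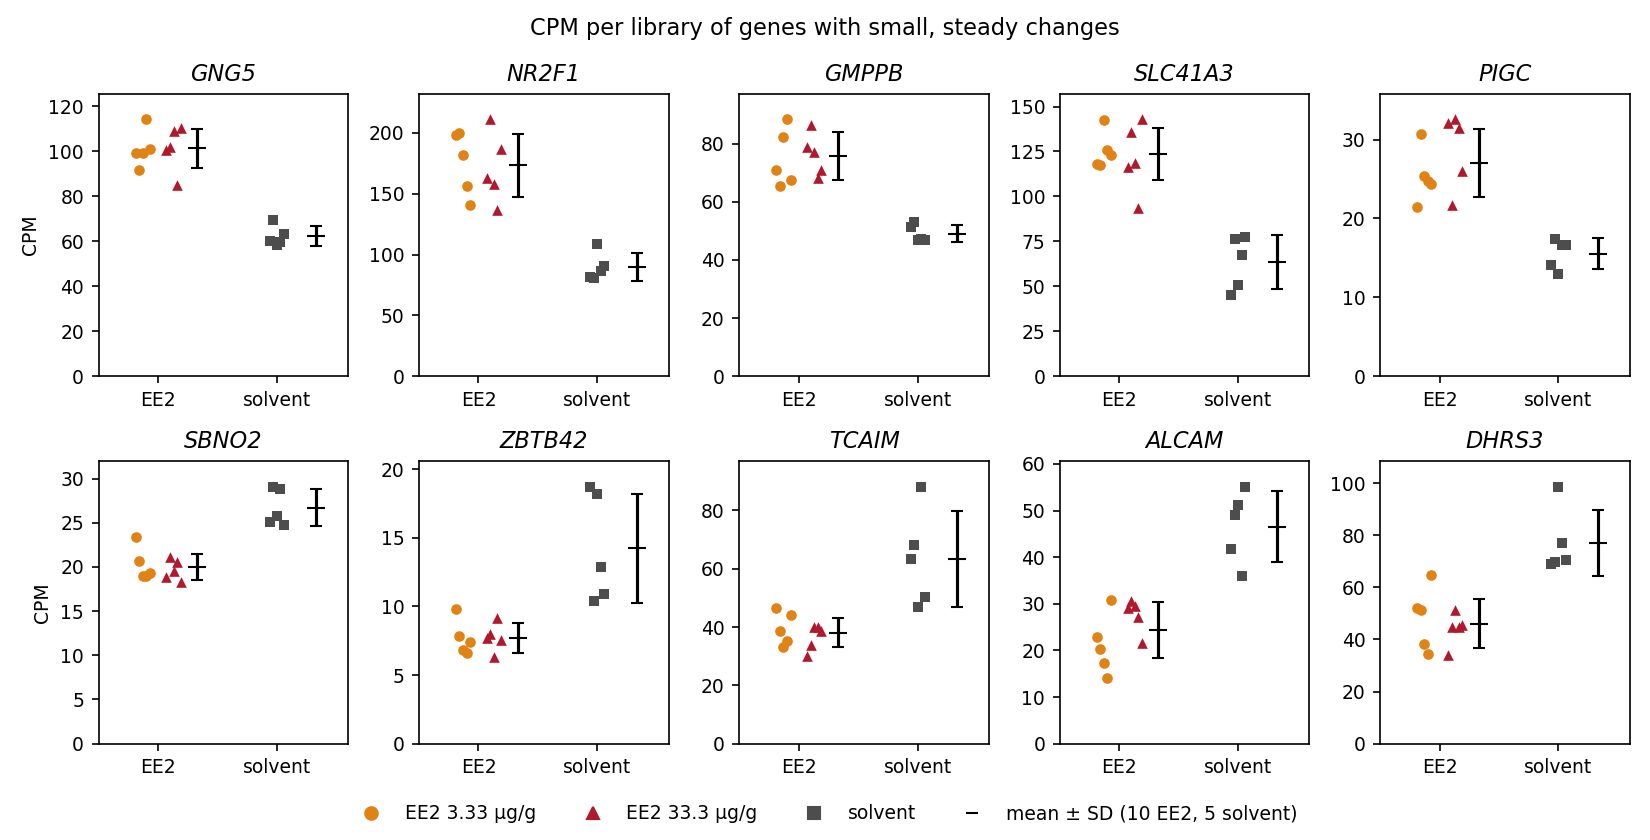
CPM per library (y axis, from 0) of the 5 small rises and 5 small falls with the smallest p, for ethinylestradiol at 3.33 µg/g (circles) and 33.3 µg/g (triangles) beside solvent (squares), with the mean and SD of 10 treated and 5 solvent libraries. In all 10 panels the treated and solvent values do not overlap, and circles and triangles overlap.

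Other small falls included CPT1A, which admits long-chain fatty acids to mitochondria for oxidation. It had 281 to 660 CPM in treated libraries, median 513, against 883, 887, 1046, 1054 and 743 CPM with solvent. Groups did not overlap (513 ± 124 CPM with treatment and 922 ± 130 CPM with solvent, log2 fold change −0.85, SE 0.16, edgeR adjusted p = 0.0119). TMEM181, a membrane protein, fell by 0.94 on the log2 scale and TRMT13, a tRNA methyltransferase, by 0.89 (edgeR adjusted p = 0.0105 and 0.0107). Smaller falls were those of STEAP3, a ferrireductase of iron uptake, by 0.49, SH3BP5, an activator of Rab11, by 0.41, and PLD1, which makes phosphatidic acid from phosphatidylcholine, by 0.37 (edgeR adjusted p = 0.0147, 0.00737 and 0.00789). The STEAP3 call ended when solvent replicate 3 was left out (adjusted p = 0.0505), the 1 such loss among the 24 small changes named by the rule.

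Small changes had close estimates at the 2 doses. The pooled fit counts a difference between doses as spread, so a gene passes more readily when its doses are close. At 3.33 and 33.3 µg/g the log2 fold changes over solvent were 0.70 and 0.70 for GNG5, 0.97 and 0.93 for NR2F1, 0.61 and 0.64 for GMPPB, −0.40 and −0.44 for SBNO2 and −0.68 and −0.80 for DHRS3. These pairs share the solvent libraries, so the doses were also compared directly. Between 33.3 and 3.33 µg/g, 0 of 14508 genes (0%) passed in edgeR, 0 in limma-voom and 19 in DESeq2, and none of those 19 was among the 287. The smallest adjusted p in edgeR was 0.0912 over all genes and 0.828 among the 287. At an unadjusted p under 0.05 there were 805 genes (5.55%) in all and 15 (5.23%) among the 287. The median absolute log2 difference between doses was 0.09 for the passing genes under 2-fold and 0.12 over all genes. Because passing favours close doses, the values among passing genes do not test whether the doses agree. A p that misses the threshold does not show that the doses act alike.

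**Figure D3:**
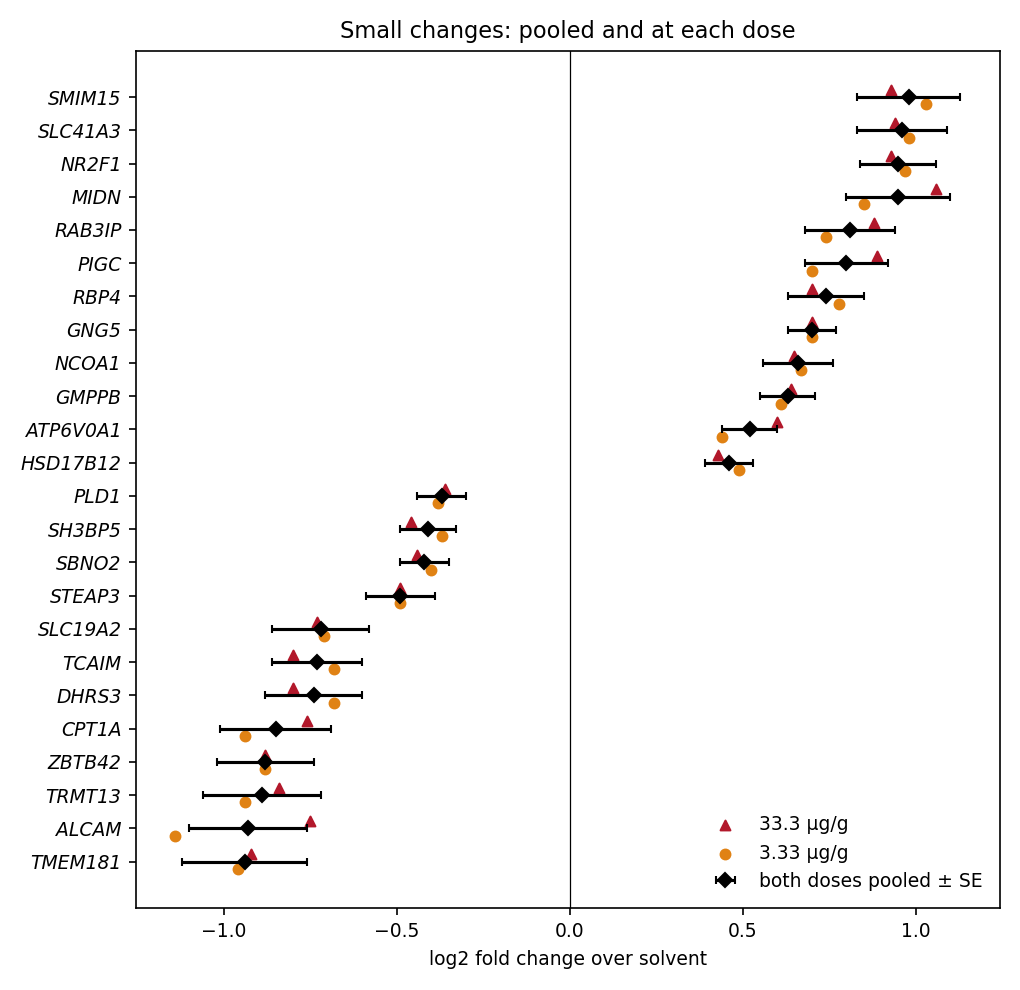
Log2 fold change over solvent (x axis) of the 24 genes with small changes named by the rule, with both doses pooled (black diamonds with SE) and at 33.3 µg/g (red triangles) and 3.33 µg/g (orange circles). GNG5, for example, lies at 0.70 for both doses pooled and for each dose.

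The 2 separate comparisons with solvent called 200 genes (1.38%) at 3.33 µg/g and 157 (1.08%) at 33.3 µg/g. Pooling also lost calls: 43 genes passed at 3.33 µg/g and not pooled, and 17 at 33.3 µg/g and not pooled. Of the 287 pooled calls, 95 (0.655% of the genes tested) passed at neither dose alone. These 95 held 55 higher and 40 lower genes, with a median absolute log2 fold change of 0.60, and 70 of them changed by under 2-fold. Their median absolute log2 difference between doses was 0.06, a low value that the way these genes were chosen favours. In 55 of the 95, at least 9 of 10 treated values lay beyond the solvent range, and in 18 all 10 did, against the 3.19% and 1.29% of all tested genes given above. The calls were made on the same values, so this separation is no separate support for them. Few of these calls were stable: 1 of 95, SLC19A2, passed whichever library was left out. The count was 52 without solvent replicate 1, 54 without replicate 2, 53 without replicate 3, 32 without replicate 4, 63 without 3.33 µg/g replicate 2, 62 without 33.3 µg/g replicate 1 and 51 without 33.3 µg/g replicate 2.

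SLC19A2, a thiamine transporter, had 10.9 to 23.1 CPM in treated libraries, median 14.6, and 25.9, 25.9, 26.3, 26.1 and 21.7 CPM with solvent. In 9 of 10 treated libraries it was below every solvent library (15.3 ± 3.56 CPM with treatment and 25.2 ± 1.94 CPM with solvent, log2 fold change −0.72, SE 0.14, edgeR adjusted p = 0.0122). ANGPTL4, a secreted inhibitor of lipoprotein lipase, had 48.0 to 110 CPM with treatment, median 80.6, against 140, 123, 132, 167 and 138 CPM with solvent. The groups did not overlap (81.2 ± 19.9 CPM with treatment and 140 ± 16.7 CPM with solvent, −0.79, SE 0.16, edgeR adjusted p = 0.0148), and the call ended without solvent replicate 4 (adjusted p = 0.0582).

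Other falls that passed at neither dose were in GPRC5C (−0.60), an orphan receptor, ESRRG (−0.53), a nuclear receptor related to the oestrogen receptors that does not bind oestrogen, and LPCAT3 (−0.42), which puts polyunsaturated fatty acids into phospholipids. RGS8 (−0.82), a regulator of G protein signalling, ACKR3 (−1.09), a chemokine receptor, COG4 (−0.29), of the complex that tethers vesicles at the Golgi, and MCRIP2 (−0.44) also fell. The rises were in COL4A5 (0.85), a basement membrane collagen, COPG1 (0.30), a coat protein of Golgi vesicles, FFAR4 (0.84), a receptor for long-chain fatty acids, and CLDND1 (0.28), a claudin-like membrane protein. GPC3 (1.06), a heparan sulphate proteoglycan of fetal liver, RASD1 (1.59), a Ras-like protein, BVES (1.21), an adhesion protein, and ADGRG1 (0.87), an adhesion G protein-coupled receptor, rose as well. COPG1 and CLDND1 had treated values that did not overlap solvent, at 160 ± 11.04 CPM with treatment and 130 ± 7.54 CPM with solvent for COPG1 and 42.5 ± 2.66 CPM with treatment and 35.0 ± 2.10 CPM with solvent for CLDND1. GPC3 exceeded all solvent libraries in 7 of the 10 treated ones. The edgeR adjusted p for ANGPTL4 and these 15 genes ran from 0.0148 to 0.0256; 14 of the 16 calls ended without solvent replicate 4, 12 without replicate 1 and 7 each without replicates 2, 3 and 5, with adjusted p up to 0.0952. Tested against a fold change of 1.2, 15 of the 16 did not pass; with library totals 4 did not, and with limma-voom 2. With both low-albumin libraries left out RASD1, RGS8, LPCAT3, COG4 and MCRIP2 did not pass (adjusted p = 0.0529, 0.0540, 0.0518, 0.0618 and 0.0504).

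Genes of the first steps of secretion were examined as a list. Of 45 tested genes for translocation into the endoplasmic reticulum and for vesicle coats, 6 rose and 0 fell, where 1.98% of all tested genes passed. In all, 37 had a value above 0, and the median log2 fold change was 0.20 against 0.004 over all genes. At an unadjusted p under 0.05, 28 of the 45 were higher and 0 lower, where 14.7% of all genes reached that p in either direction. SRP72, a subunit of the signal recognition particle that brings secretory proteins to the membrane, had 83.9 to 104 CPM in treated libraries, median 91.4, and 71.8, 74.8, 75.6, 72.1 and 77.5 CPM with solvent. No values overlapped (92.0 ± 5.36 CPM with treatment and 74.3 ± 2.42 CPM with solvent, 0.31, SE 0.05, edgeR adjusted p = 0.00577).

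SSR3 and SSR2 are subunits of the translocon-associated complex. SSR3 had 208 to 252 CPM with treatment, median 233, and 170, 169, 140, 179 and 203 CPM with solvent (234 ± 15.1 CPM with treatment and 172 ± 22.4 CPM with solvent, 0.44, SE 0.08, edgeR adjusted p = 0.00618). SSR2 averaged 191 ± 11.03 CPM with treatment and 154 ± 13.1 CPM with solvent (0.31, SE 0.06, edgeR adjusted p = 0.0176). All 10 treated values of each were above all solvent values. COPG1, given above, was the fourth. The last members, named after their values were seen, were SSR1 of the same complex (0.36) and SRPRB (0.27), of the receptor for the signal recognition particle (edgeR adjusted p = 0.0442 and 0.0430). Each of those calls ended without any of 13 libraries (adjusted p up to 0.101 and 0.126) and with both low-albumin libraries left out (0.0540 and 0.0755).

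The number of these genes that passed ran from 2 to 7 over the fits that left out 1 library. The SSR2 call ended without solvent replicate 1, 2 or 3 (adjusted p up to 0.0706) and that of SRP72 with library totals only (0.0977), and with both low-albumin libraries left out 4 genes passed with a median of 0.18.

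N-glycosylation genes, which build and attach the sugar chains of secreted proteins, gave 3 rises and 0 falls among 26 tested, with a median of 0.03. Over all tested genes 1.98% passed. Of the 26, 6 were higher and 0 lower at an unadjusted p under 0.05. DAD1 and STT3A belong to the oligosaccharyltransferase that attaches the chain. DAD1 averaged 117 ± 6.46 CPM with treatment and 92.4 ± 10.3 CPM with solvent, with no overlap (0.34, SE 0.07, edgeR adjusted p = 0.0164). STT3A averaged 422 ± 38.0 CPM with treatment and 324 ± 36.1 CPM with solvent (0.38, SE 0.08, edgeR adjusted p = 0.0243), and ALG5, which loads glucose onto the lipid carrier, 33.2 ± 3.21 CPM with treatment and 25.5 ± 2.42 CPM with solvent (0.38, SE 0.08, edgeR adjusted p = 0.0219). These 3 calls ended with library totals only (adjusted p up to 0.0861) and when solvent replicate 1, 2 or 3 was left out (up to 0.0843), and those of STT3A and ALG5 also without replicate 4 (up to 0.0765). ALG5 did not pass with both low-albumin libraries left out (0.0516). Of 31 chaperone and folding genes of the endoplasmic reticulum, 26 had a value above 0, the median was 0.19 and 1 passed, HERPUD1 of protein degradation from the reticulum (0.59, edgeR adjusted p = 0.0313). Its call ended without any of 8 libraries (adjusted p up to 0.0927) and with both low-albumin libraries left out (0.0668). HERPUD1 also did not pass in limma-voom (adjusted p = 0.0658). By adjusted p, 1.98% of all genes tested passed, a share from which 1 call among 31 cannot be told. Yet 12 of the 31 were higher and 3 lower at an unadjusted p under 0.05, against 14.7% of all genes in either direction.

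**Figure D4:**
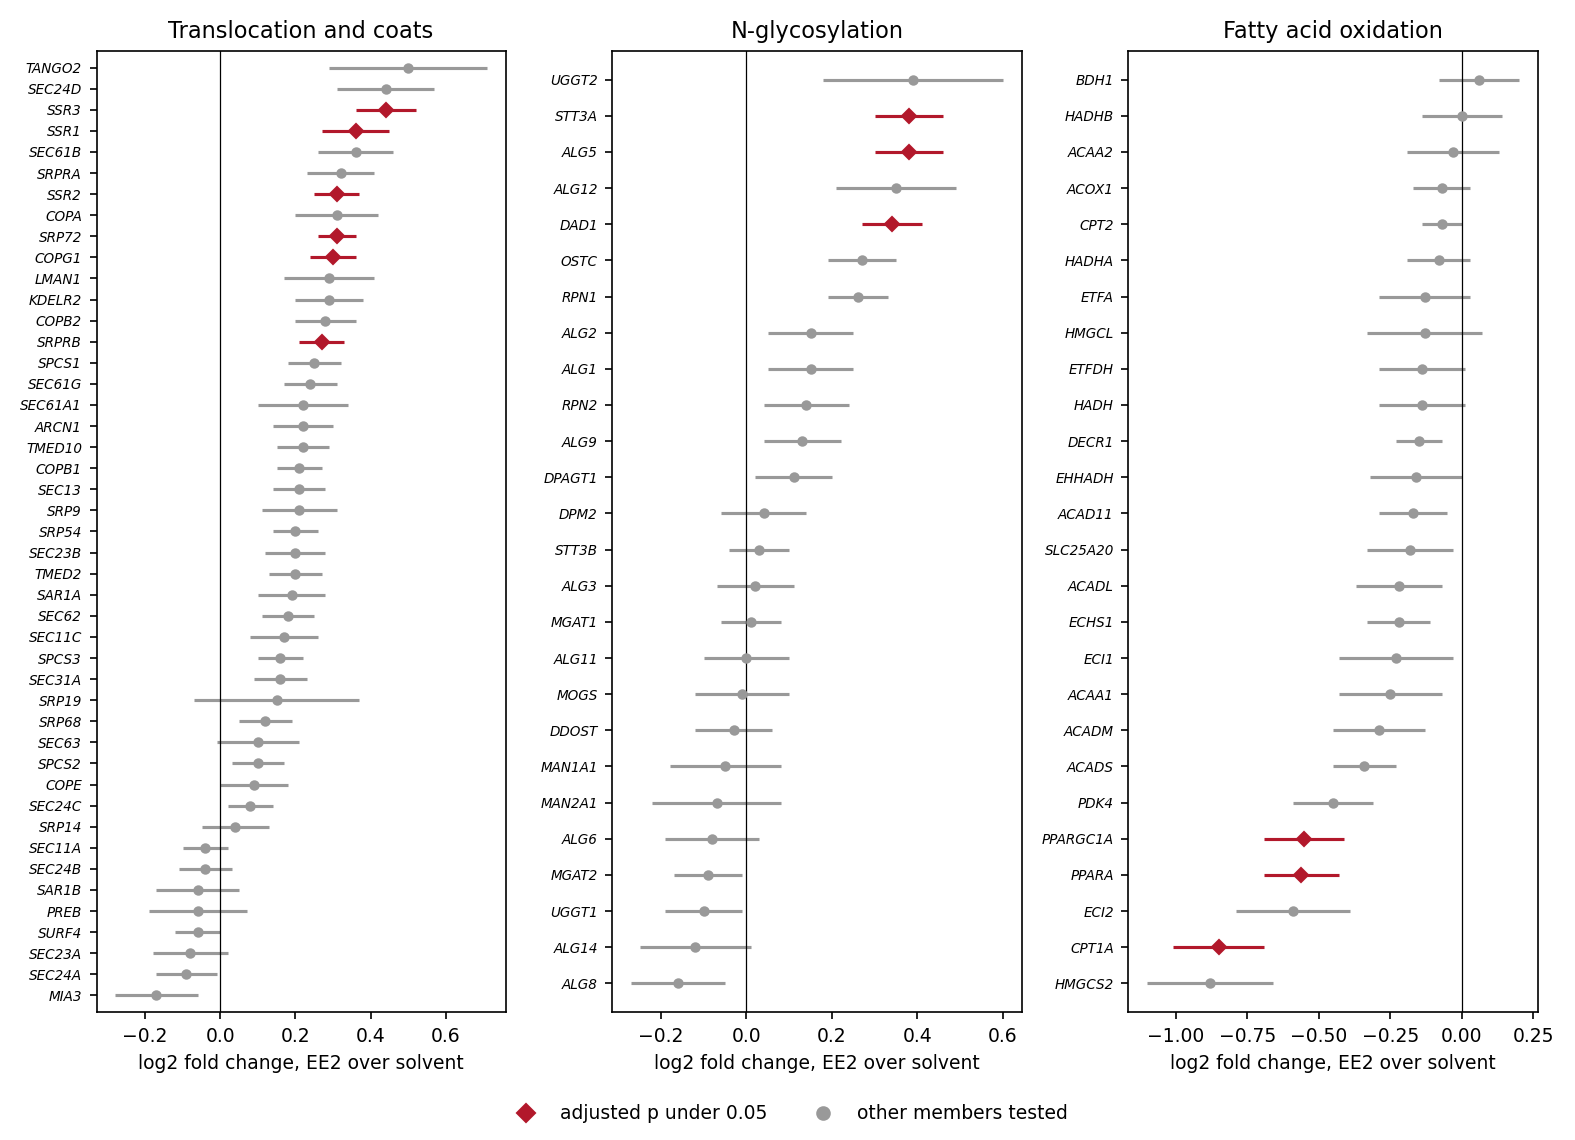
Log2 fold change of ethinylestradiol over solvent with its SE (x axis) for every tested gene of secretory translocation and coats (45), N-glycosylation (26) and fatty acid oxidation (26). Red diamonds are the 6, 3 and 3 genes with an adjusted p under 0.05; grey circles of the first list lie mostly above 0 and those of the third below it.

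Yolk and egg genes held both large and small changes. The list held 18 genes, of which 10 were matched by symbol and tested, and no vitellogenin (yolk protein) gene was among those 10. By adjusted p, 5 rose and 0 fell, where 1.98% of all tested genes passed. Of the 10, 6 had a value above 0 and 4 below it. RBP4, the plasma carrier of retinol that is also placed in yolk, changed by under 2-fold, with 1423 to 2235 CPM in treated libraries, median 1790, and 1084, 1189, 1028, 971 and 1090 CPM with solvent. Groups stood apart (1796 ± 274 CPM with treatment and 1072 ± 81.3 CPM with solvent, log2 fold change 0.74, SE 0.11, edgeR adjusted p = 0.00165). APOB averaged 21266 ± 4102 CPM with treatment and 6918 ± 752 CPM with solvent (1.62, SE 0.15, edgeR adjusted p = 1.46e-05), and TCN2, a vitamin B12 carrier, 358 ± 119 CPM with treatment and 32.4 ± 12.2 CPM with solvent (3.47, SE 0.31, edgeR adjusted p = 1.46e-05). The other two, named after their values were seen, were CUBN, a receptor for that vitamin's carrier complexes (3.43), and ZP1, an egg coat protein that avian liver makes under oestrogen (3.80; edgeR adjusted p = 0.0155 and 0.0164). ZP1 was at 90.2 to 365 CPM with treatment and at 45.1 CPM in solvent replicate 3, while the remaining solvent libraries had 1.45 to 3.06 CPM. Leaving out solvent replicate 3 gave ZP1 a log2 fold change of 5.96, and without solvent replicate 4 neither ZP1 nor CUBN passed (adjusted p = 0.0520 and 0.0533). CUBN was counted rarely, at 1.07 to 11.9 CPM with treatment and 0.0747 to 0.856 CPM with solvent. Its call ended in 2 of the fits that left out 1 library (adjusted p up to 0.0533).

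A few genes of lipid synthesis rose. In fatty acid synthesis and elongation 3 of 23 rose and 0 fell (median 0.13), where 1.98% of all tested genes passed. Of the 23, 8 were higher and 1 lower at an unadjusted p under 0.05. HSD17B12, which reduces the 3-ketoacyl intermediate of elongation, had 98.0 to 125 CPM with treatment, median 116, and 79.8, 83.1, 73.7, 88.0 and 85.8 CPM with solvent, with no overlap (0.46, SE 0.07, edgeR adjusted p = 0.00253). The elongase gene ELOVL5 averaged 49.3 ± 11.3 CPM with treatment and 29.0 ± 5.26 CPM with solvent (0.77, SE 0.16, edgeR adjusted p = 0.0219), a call that ended without solvent replicate 1, 3 or 4 (adjusted p up to 0.0750). ELOVL2, another elongase, rose by 6.43 (edgeR adjusted p = 0.00524) but spread from 1.52 to 159 CPM within the treated group, and did not pass in limma-voom (adjusted p = 0.323). AGPAT2, which makes phosphatidic acid, rose by 1.75 (edgeR adjusted p = 0.000597) and was the 1 call among 21 genes of triglyceride and phospholipid synthesis, where 1.98% of all tested genes passed.

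Of 23 genes of cholesterol synthesis and uptake, 20 had a value above 0, with a median of 0.26. There were 7 higher and 1 lower at an unadjusted p under 0.05, against 14.7% of all genes in either direction. By adjusted p, 1 rose and 1 fell, where 1.98% of all tested genes passed. EBP, a sterol isomerase, rose (51.9 ± 5.79 CPM with treatment and 37.4 ± 4.46 CPM with solvent, 0.47, SE 0.09, edgeR adjusted p = 0.0124), with all treated values above solvent. SCAP, the sterol sensor that escorts SREBP proteins, fell (27.0 ± 3.70 CPM with treatment and 35.2 ± 2.42 CPM with solvent, −0.38, SE 0.09, edgeR adjusted p = 0.0412), and its call ended without any of 12 libraries (adjusted p up to 0.103) and with both low-albumin libraries left out (0.0816).

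Genes of fatty acid oxidation lay mostly below 0. Of 26 tested, 25 had a value below 0, and the median was −0.18. There were 7 lower and 0 higher at an unadjusted p under 0.05, against 14.7% of all genes in either direction. By adjusted p, 3 fell and 0 rose, where 1.98% of all tested genes passed. Besides CPT1A these were PPARA, the nuclear receptor that turns on fatty acid oxidation, at 76.5 ± 11.8 CPM with treatment and 113 ± 26.5 CPM with solvent (−0.56, SE 0.13, edgeR adjusted p = 0.0408), and its coactivator PPARGC1A at 7.65 ± 1.22 CPM with treatment and 11.2 ± 2.04 CPM with solvent (−0.55, SE 0.14, edgeR adjusted p = 0.0472). Treated and solvent values of PPARA overlapped: 5 of 10 treated libraries were below every solvent library, and solvent replicate 5 had 76.1 CPM while the others had 104 to 149 CPM. PPARGC1A was below the solvent range in 4 of 10. The PPARA and PPARGC1A calls each ended without any of 11 libraries (adjusted p up to 0.134 and 0.131) and with both low-albumin libraries left out (0.0840 and 0.0595), which left 1 gene of the list passing and a median of −0.11. Both calls also ended in limma-voom (adjusted p = 0.0629 and 0.0679) and with the replicate block (0.0964 and 0.0707). The erythroid covariate ended both as well (0.0550 and 0.0640), and library totals only ended that of PPARGC1A (0.132).

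Retinoid genes moved both ways, with 2 of 16 higher and 1 lower, where 1.98% of all tested genes passed. By unadjusted p under 0.05, 2 were higher and 2 lower. RARA, a retinoic acid receptor, had 44.4 to 88.7 CPM in treated libraries, median 73.0, and 30.8, 28.2, 30.8, 29.0 and 26.6 CPM with solvent. All treated values were higher (69.1 ± 13.7 CPM with treatment and 29.0 ± 1.79 CPM with solvent, log2 fold change 1.25, SE 0.14, edgeR adjusted p = 0.000113). DHRS3, which turns retinaldehyde back into retinol, had 34 to 64.7 CPM with treatment, median 45.1, against 68.9, 69.8, 98.6, 77.1 and 70.4 CPM with solvent. No treated value reached the lowest solvent value (46.1 ± 9.36 CPM with treatment and 77.0 ± 12.5 CPM with solvent, −0.74, SE 0.14, edgeR adjusted p = 0.00725). RBP4 was the other rise. The 3 calls held whichever library was left out and with each other setting tried.

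Of 17 tested oestrogen receptors and their partners, 9 had a value above 0 and 8 below it (median 0.01). At an unadjusted p under 0.05, 3 were higher and 2 lower. The passing genes were 2 rises and 0 falls, where 1.98% of all tested genes passed. HSD17B12, whose human counterpart also reduces oestrone, was 1 of the rises. The other was NCOA1, a coactivator of steroid receptors, with 67.2 to 106 CPM in treated libraries, median 93.8, and 52.4, 56.7, 57.8, 51.2 and 73.0 CPM with solvent. It exceeded all solvent libraries in 9 of the 10 treated ones (91.8 ± 10.96 CPM with treatment and 58.2 ± 8.72 CPM with solvent, 0.66, SE 0.10, edgeR adjusted p = 0.00249). The oestrogen receptor gene ESR1 averaged 16.8 ± 3.24 CPM with treatment and 22.3 ± 10.8 CPM with solvent and did not pass (−0.41, SE 0.21, edgeR adjusted p = 0.392). Solvent replicate 3, the solvent library with a lower mean level of Z genes, had 40.0 CPM, while the remaining solvent libraries had 14.99 to 25.2 CPM.

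Wnt signalling and adhesion gave 3 falls and 0 rises among 29 genes (median −0.17), where 1.98% of all tested genes passed. Of the 29, 11 were lower and 1 higher at an unadjusted p under 0.05, against 14.7% of all genes in either direction. The falls were WNT2B, ALCAM and FZD7. WNT2B, a Wnt ligand, had 2.49 to 6.56 CPM with treatment, median 4.64, and 13.9, 12.96, 11.9, 9.79 and 9.45 CPM with solvent, with no overlap (−1.34, SE 0.18, edgeR adjusted p = 0.000515). FZD7, a Wnt receptor, averaged 46.7 ± 4.995 CPM with treatment and 61.1 ± 9.07 CPM with solvent (−0.39, SE 0.09, edgeR adjusted p = 0.0386), and its call ended without any of 9 libraries (adjusted p up to 0.124). FZD7 also did not pass in limma-voom (adjusted p = 0.0533).

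Among 26 transcription factors of liver, 3 rose and 1 fell, where 1.98% of all tested genes passed. The rises were RARA, CEBPB, a factor of liver growth and stress responses, and GATA6, and the fall was PPARA. The list as a whole leaned the other way, with 18 of 26 below 0 and a median of −0.10. Of these genes, 6 were lower and 3 higher at an unadjusted p under 0.05. CEBPB, also the 1 call among 20 genes of the amino acid response, averaged 184 ± 24.9 CPM with treatment and 73.9 ± 5.86 CPM with solvent (log2 fold change 1.31, SE 0.10, edgeR adjusted p = 3.49e-06). For the amino acid list, 1 call cannot be told from the 1.98% of all tested genes that passed. Of its 20 genes, 7 were higher and 0 lower at an unadjusted p under 0.05, against 14.7% of all genes in either direction. GATA6, a factor of early liver named after its values were seen, averaged 131 ± 9.70 CPM with treatment and 108 ± 7.86 CPM with solvent (0.28, edgeR adjusted p = 0.0430), and its call ended without any of 12 libraries (adjusted p up to 0.134) and with both low-albumin libraries left out (0.0750).

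Of 26 plasma proteins made by hepatocytes, 23 had a value below 0 (median −0.26) and 1 fell, the fibrinogen chain FGA (3181 ± 1032 CPM with treatment and 5659 ± 1228 CPM with solvent, −0.83, SE 0.20, edgeR adjusted p = 0.0449). The other fibrinogen chains, FGB and FGG, named after their values were seen, had log2 fold changes of −0.84 and −0.82 and did not pass (edgeR adjusted p = 0.05003 and 0.0580). At an unadjusted p under 0.05, 7 plasma protein genes were lower and 2 higher, AHSG (2.02) and KNG1 (0.39), both also named after their values were seen (edgeR adjusted p = 0.104 and 0.112). FGA was also the 1 call among 24 coagulation and complement genes. The FGA call ended without any of 11 libraries (adjusted p up to 0.151) and with both low-albumin libraries left out (0.0672). Of 15 acute phase and interferon genes 14 had a value below 0 (median −0.57, or −0.17 without solvent replicate 5) and 0 passed in edgeR, 0 in limma-voom and 2 in DESeq2, with 7 lower at an unadjusted p under 0.05. Of 17 apolipoprotein and lipoprotein processing genes, ANGPTL4 was the 1 that passed (median −0.30). In iron and haem metabolism 1 of 19 passed, ALAD, an enzyme of haem synthesis (−0.41, edgeR adjusted p = 0.0448), a call that ended without any of 12 libraries (adjusted p up to 0.140) and with both low-albumin libraries left out (0.1002). By adjusted p, the lists of this paragraph with 1 call each cannot be told from the 1.98% of all tested genes that passed. Coagulation and complement had 7 lower and 0 higher genes at an unadjusted p under 0.05. Lipoprotein processing had 6 lower and 1 higher at that p, and iron and haem metabolism 3 lower and 1 higher. Over all tested genes 14.7% reached it.

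Lists of general cell upkeep had no gene that passed in edgeR, with counts at an unadjusted p under 0.05 in brackets: 53 ribosomal proteins, median −0.02 (0), 37 oxidative phosphorylation genes, −0.09 (4), 36 cell cycle genes, −0.20 (4), 27 proteasome genes, 0.10 (1), 22 splicing genes, 0.00 (1), 29 autophagy and lysosome genes, 0.08 (6), and 18 tRNA synthetase genes, 0.03 (2). Values below 0 were held by 34 of the cell cycle, 33 of the oxidative phosphorylation, 32 of the ribosomal and 11 of the splicing genes. Values above 0 were held by 24 of the proteasome, 20 of the autophagy and lysosome and 14 of the tRNA synthetase genes. A lean to one side was thus also seen in lists with no call. In limma-voom 0 genes of these upkeep lists passed, and in DESeq2 1, a lower cell cycle gene. Glucose and glycogen (21 genes, median −0.07), P450 and conjugation (7, −0.14), membrane transporter (14, 0.05) and thyroid and growth axis (21, −0.09) lists had 0 passing genes each, with 4, 2, 4 and 3 at an unadjusted p under 0.05. In limma-voom 0 passed, and in DESeq2 1 transporter gene was higher and 1 gene of the thyroid and growth axis lower. These lists held 31, 42, 26 and 24 genes before matching by symbol. Most P450 and conjugation genes of the list were thus not tested.

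**Figure D5:**
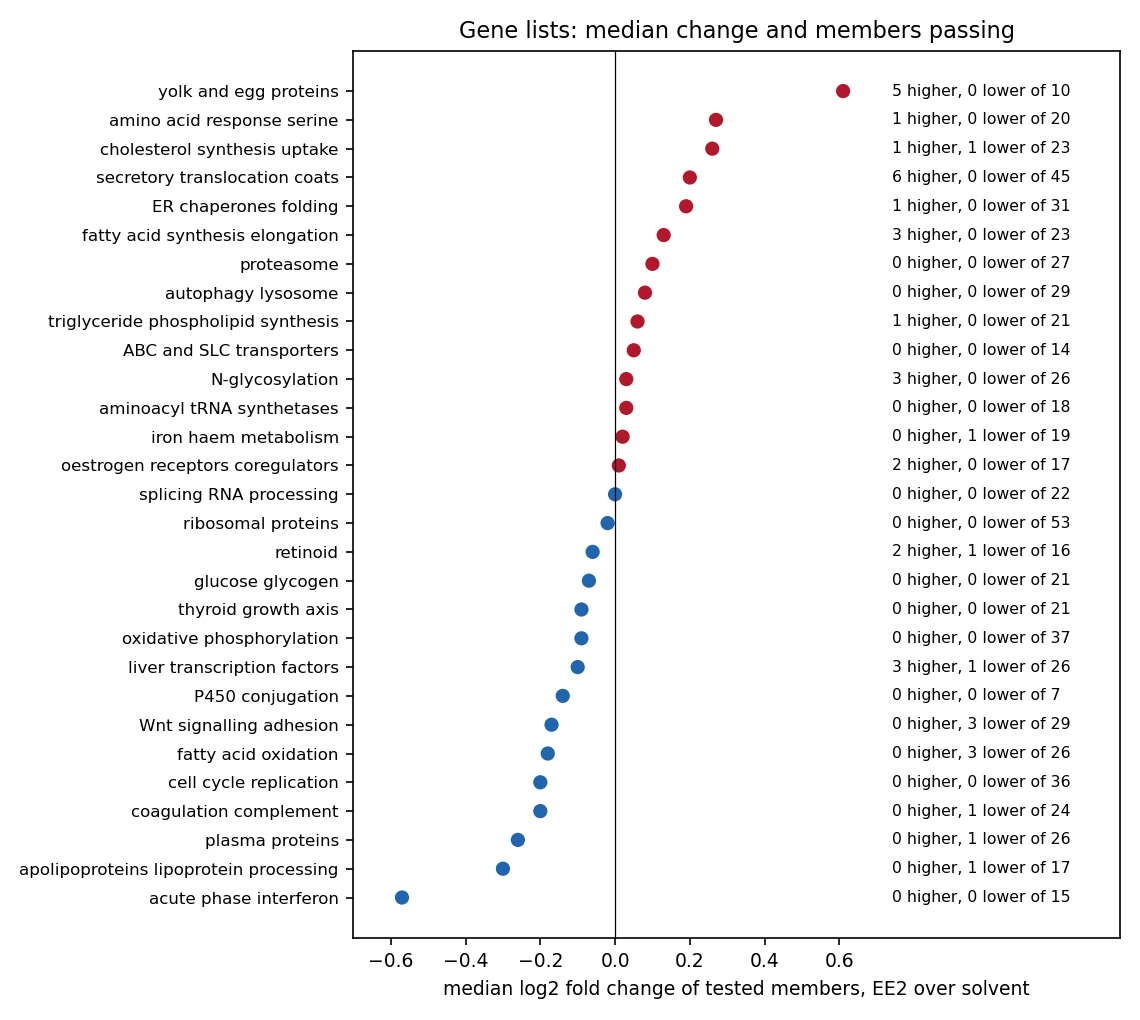
Median log2 fold change of ethinylestradiol over solvent (x axis) of the tested genes of each list, with the number of genes that passed in each direction written at the right. Yolk and egg proteins stand highest at 0.61 with 5 of 10 higher, and acute phase and interferon genes lowest at −0.57 with 0 passing.

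Large changes were the other 128 calls, 110 higher and 18 lower. Of the 128, 90 had a symbol, as did 40 of the 66 rises over 4-fold. Genes without a symbol were left out by the naming rule, so those named below are not the full set of large changes. The smallest p belonged to SUN2, which ties the nuclear envelope to the cytoskeleton, with 58.2 to 110 CPM in treated libraries, median 69.4, and 21.1, 21.7, 23.5, 16.3 and 16.2 CPM with solvent (log2 fold change 1.92, SE 0.15, edgeR adjusted p = 3.49e-06). KIF3C, a kinesin motor subunit, averaged 45.8 ± 10.9 CPM with treatment and 9.55 ± 0.936 CPM with solvent (2.26, SE 0.18, edgeR adjusted p = 3.49e-06). Groups did not overlap for either gene. Large falls in genes above 1 CPM were in PRDM6 (−1.22) and PLA2G3 (−1.31), with no overlap, and in GPR142 (−1.91), below every solvent library in 9 of 10 treated libraries (edgeR adjusted p = 0.00376, 0.00383 and 0.00183). ADAMTS17 (−1.23) and CALHM3 (−1.83) fell (edgeR adjusted p = 0.0139 and 0.0207). The ADAMTS17 call ended without solvent replicate 1 or 4 (adjusted p up to 0.0580), and that of CALHM3 without solvent replicate 1, 3 or 5 (adjusted p up to 0.0641).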

How the data were processed

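RNA of embryonic quail liver was measured in 15 libraries. The authors quantified reads with kallisto, per the submitters' processing notes; the version, index and build were not given in the sources used here. As deposited by the authors, the values are estimated counts per transcript, without normalization, and each entry carries an NCBI gene ID. The 47418 entries were summed per gene ID and rounded, giving 20308 genes, of which 18900 (93.1%) matched the gene table of the Coturnix japonica 2.1 assembly, 12972 with a symbol. Library totals were 21715273 to 54591426. No molecular identifiers are named, so depth speaks to counting error only, which weighs most on genes near 1 CPM.

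Groups came from the labels. edgeR 4.0.16 in R 4.3.3 was run with filterByExpr, TMM factors and the robust quasi-likelihood F-test on 2 groups, treated (10) and solvent (5), over 14508 genes (common biological coefficient of variation 0.266). P-values were two-sided and Benjamini-Hochberg adjusted, with a threshold of 0.05. The SE is the absolute log2 fold change over the square root of F. A 3-group fit gave each dose. CPM are on TMM-scaled totals. Replicate numbers were checked for pairing. No library was closest to one of its own number, which does not exclude a shared batch.

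Named genes, among passing genes with a symbol and at least 1 CPM in the higher group, were the 12 of smallest p in each direction under 2-fold (the first 5 in depth), the 8 in each direction passing at neither dose, the 6 in each direction at 2-fold or more, up to 3 passing members of each of 29 gene lists, and ESR1. Genes and lists were chosen with earlier results of these data known. Alternatives were RLE factors, library totals, 2 filters, DESeq2 1.42.0, limma-voom 3.58.1, a replicate block, the mean of the dose effects in 3 groups, erythroid and chromosome Z covariates, a fold change threshold of 1.2, an adjusted p under 0.1, and leaving out each library or the 2 of low albumin share. Scripts were tested on simulated data. Figures used Python 3.11.15, pandas 2.3.3 and matplotlib 3.10.9.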

Additional observations from a re-analysis of the deposited data

Results flagged for a closer look

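Among 142 sets of values (71 named genes in treated and in solvent libraries), 9 held a library far from the others of its group, 4 among treated and 5 among solvent sets, where chance gives about 1 in 20 sets. In treated libraries these were RAB3IP at 31.8 CPM in 33.3 µg/g replicate 2 (nearest 25.4), SRP72 at 104 CPM in 3.33 µg/g replicate 4 (94.4), SH3BP5 at 102 CPM in 3.33 µg/g replicate 1 (87.8) and RGS8 at 95.7 CPM in 33.3 µg/g replicate 4 (62.9). In solvent libraries they were AGPAT2 at 42.9 CPM in replicate 4 (33.2), DHRS3 at 98.6 CPM in replicate 3 (77.1), SLC19A2 at 21.7 CPM in replicate 5 (25.9), GPC3 at 2.66 CPM in replicate 3 (1.42) and LPCAT3 at 86.2 CPM in replicate 2 (102). The values of AGPAT2, SH3BP5, SLC19A2, RGS8, GPC3 and LPCAT3 lay towards the other group. All 9 genes passed without the library that stood apart.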

How the results depend on the processing

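None of the 71 named genes changed direction under any alternative, and of 1987 comparisons of a named gene with an alternative 238 lost the call. Leaving out 1 library gave 156 to 353 passing genes against 287, 122 to 232 higher against 209, 30 to 121 lower against 78, 64 to 207 under 2-fold against 159, 32 to 115 passing at neither dose against 95, and 0 to 0 between the doses. DESeq2 gave 684 genes, 441 higher, 243 lower and 455 under 2-fold, and 1 between the doses among its own calls; an adjusted p under 0.1 gave 505, 322, 183 and 333. The chromosome Z covariate gave 463 genes, 181 lower, 298 under 2-fold and 175 passing at neither dose, with 60.9% of the calls higher against 72.8%. A fold change threshold of 1.2, which removes small changes by construction, gave 122 genes, 106 higher, 16 lower, 25 under 2-fold and 21 at neither dose, with 86.9% higher. The replicate block gave 193 genes, 150 higher, 43 lower, 88 under 2-fold, 76 at neither dose and 0 between the doses, and ended 5 of the 16 named calls that passed at neither dose alone. Residuals correlated by over 0.1 in 1 of 15 same-numbered pairs, and 0 libraries were closest to a library of their own number. With few libraries per group, this check cannot exclude that same-numbered libraries shared a batch. The cause of these shifts was not tested. Other alternatives kept these counts within 1.5 times. With every alternative but the looser threshold, 85 of the 287 genes passed wherever they were tested, 24 of them under 2-fold. A gene removed by the filter of an alternative was not counted as lost there. No 2 replicates were copies, with a chi-square per degree of freedom of at least 26.2 over 30 pairs. Depth limits genes near 1 CPM most.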
